A study of Homo sapiens with 6 samples.

Results

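The 10 genes described here are host genes of small nucleolar RNAs (snoRNAs): GAS5, SNHG1, SNHG5, SNHG6, SNHG7, SNHG8, SNHG12, SNHG15, ZFAS1 and EPB41L4A-AS1. They were taken by symbol from a table of 60675 genes, and all 10 passed the filter on low counts, as did 14613 genes in all. The set was drawn up with their values by label and by DAPK3 RNA level already known, GAS5 having been seen to follow the label. It was thus chosen by these measured values, which are given as a description. Where the calls of a fit over all genes include members, those calls are not evidence for the set. RNA came from SUM159 cells, an established triple-negative breast cancer line, in 3 libraries labelled control (DAPK3 WT) and 3 labelled DAPK3 KO, the latter from the single knockout line numbered 3. DAPK3 is a protein kinase with roles in cell death and in actomyosin contraction, and the comparison the labels give is knockout against control. All 6 libraries shared a Ham's-based medium with the glucocorticoid hydrocortisone at 1 µg/mL, insulin at 5 µg/mL, HEPES at 10 mM and serum at 5%. No label says whether libraries of a group were separate cultures, so the spread between them may be technical.

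snoRNAs guide chemical modification of ribosomal RNA, box C/D snoRNAs directing ribose methylation and box H/ACA snoRNAs directing pseudouridylation. In human cells most of them are cut out of introns, and a host gene such as GAS5 or an SNHG has spliced exons that carry no long reading frame while its introns carry the snoRNAs. Many host transcripts begin with a terminal oligopyrimidine tract (a C followed by a run of C and T), as ribosomal protein mRNAs do, and their spliced RNA is engaged by ribosomes and degraded by nonsense-mediated decay. GAS5 was named for its accumulation in growth-arrested cells, and its RNA is known as a decoy of the glucocorticoid receptor.

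The 10 hosts differ in what their introns carry. RefSeq lists 35 snoRNAs within them, of which 11 lie in GAS5 (10 of box C/D), 9 in SNHG1 (8 of box C/D), 4 in SNHG12 (3 of box H/ACA) and 3 of box C/D in ZFAS1. SNHG5 and SNHG7 hold 2 each, of box C/D and box H/ACA respectively. SNHG6 holds 1 of box C/D, and SNHG8, SNHG15 and EPB41L4A-AS1 hold 1 of box H/ACA each. Rows with the symbols of 28 of the 35 were in the table, and all stood at 0 expected counts in all 6 libraries. The libraries were made from polyA RNA, and the values below are therefore those of the polyadenylated host RNA and say nothing of the snoRNAs.

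The hosts also differ in their annotated 5′ ends. In GENCODE release 29, 21 of the 132 transcripts of the 10 genes (15.9%) begin with a C followed by at least 4 more C or T, against 4979 of all 206694 transcripts (2.41%). At least 1 transcript of 7 of the 10 genes begins this way, and none does for SNHG7, SNHG15 and EPB41L4A-AS1. The first 60 bases of 1 transcript of 8 genes are shown so that the ends can be compared, with the tract in capitals, and for each gene the best supported transcript with a tract was taken, or the best supported one where there is none.
GAS5-210: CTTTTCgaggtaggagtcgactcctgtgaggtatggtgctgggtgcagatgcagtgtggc
ZFAS1-201: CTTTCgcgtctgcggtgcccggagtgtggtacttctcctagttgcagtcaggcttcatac
SNHG8-205: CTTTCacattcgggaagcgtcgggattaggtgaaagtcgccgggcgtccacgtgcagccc
SNHG5-202: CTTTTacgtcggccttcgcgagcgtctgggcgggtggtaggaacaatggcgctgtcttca
SNHG12-209: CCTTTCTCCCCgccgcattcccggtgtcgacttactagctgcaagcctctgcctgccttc
SNHG7-202: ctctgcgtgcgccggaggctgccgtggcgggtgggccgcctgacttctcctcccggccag
SNHG15-203: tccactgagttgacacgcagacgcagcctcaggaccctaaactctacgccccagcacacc
EPB41L4A-AS1-201: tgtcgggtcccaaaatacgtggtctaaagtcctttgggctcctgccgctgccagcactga
GAS5 begins with a tract of 6 bases at position 173867989 of chromosome 1 (GRCh38, minus strand) in 6 of its 29 transcripts. The tract of ZFAS1 at position 49278642 of chromosome 20 (plus strand) and that of SNHG8 at position 118278758 of chromosome 4 (plus strand) are 5 bases long, and the tract of SNHG12 at position 28581873 of chromosome 1 (minus strand) is 11 bases long. The only such transcript of SNHG1 has weak support in the annotation. Expected counts are summed per gene, so starts within a gene were not measured separately.

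The RefSeq start of ZFAS1 is the same base as its tract start, and its promoter window, chr20:49278392-49278691 on GRCh38.p14 (plus strand), is shown because it places the tract behind the upstream sequence. Capitals mark 2 matches to the GC box GGGCGG and the tract itself.
ZFAS1 promoter window: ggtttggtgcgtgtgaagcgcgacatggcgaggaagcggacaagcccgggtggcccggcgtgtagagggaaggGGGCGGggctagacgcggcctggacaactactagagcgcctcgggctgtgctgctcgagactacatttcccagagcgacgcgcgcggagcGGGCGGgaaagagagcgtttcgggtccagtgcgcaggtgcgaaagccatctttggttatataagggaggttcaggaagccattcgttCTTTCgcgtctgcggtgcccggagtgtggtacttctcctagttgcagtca
RefSeq windows of 250 bases before to 50 after the start were at hand for 8 of the 10 genes. The GC box GGGCGG, searched on both strands, was in 6 of the 8 windows and in 45.0% of 35116 windows of all genes. The E-box CACGTG was in 1 of the 8, SNHG7 (7.26% of all windows), and the CCAAT box CCAAT was in 2, GAS5 and SNHG5 (34.6% of all). TATAAA was in 2, SNHG1 and SNHG7 (11.5%), and TGACGTCA and CCGGAAG were in 0 (1.85% and 10.3%). The GAS5 window surrounds position 173869045, upstream of the start shown above.

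Library totals ran from 16312184 to 22970823 expected counts. CPM is the expected count divided by the TMM-scaled library total and given per 1e6 counts. Library values are always listed in the order R1, R2, R3. DAPK3 RNA, which checks the labels, was measured at 26.1, 10.6, 25.9 CPM for libraries labelled control and 13.1, 27.0, 11.3 CPM for those labelled KO, so that both R2 libraries stood opposite to what their labels say. Whether control R2 and KO R2 were exchanged cannot be told from these files. No library was moved between groups, and every value given under a label rests on the label as deposited. Were these 2 libraries exchanged, the groups would overlap for GAS5, ZFAS1 and EPB41L4A-AS1, since KO R2 was above control R2 for each. VIM, CD44, KRT8 and KRT18 were expressed in all libraries, while PGR was at 0 in all and ESR1 at most at 0.483 CPM. ERBB2, the third receptor gene that defines triple-negative tumours, was expressed, at 95.0, 68.6, 96.9 CPM under the control label and 52.1, 58.8, 55.7 CPM under the KO label, lower under KO without overlap (−0.65 on the log2 scale, SE 0.17, edgeR adjusted p = 0.63). The 15 markers of other cell types summed to between 81.0 and 655 CPM in control and between 71.0 and 559 CPM in KO, most of it from COL1A1, and CDH5 was at 0. The sum was high in control R1, control R3 and KO R2, so it moved with DAPK3 RNA and not with the label.

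GAS5, ZFAS1 and EPB41L4A-AS1 RNA was higher in every library labelled KO than in any labelled control. Together the 10 genes took 0.137%, 0.179%, 0.158% of counts under the control label and 0.217%, 0.233%, 0.229% under the KO label, and GAS5 alone made up between 27.7% and 34.5% of this. The fitted fold change was above 0 for 10 of 10 genes, with a median log2 fold change of 0.44 against −0.0003 over all genes tested. edgeR's quasi-likelihood test called 0 of 14613 genes between the labels (0%), 0 of the 10 among them, and the lowest adjusted p was 0.635, which is written as 0.63 for single genes, whose adjusted p-values are rounded to 2 digits. Without adjustment 510 genes (3.49%) were higher and 609 (4.17%) lower at p under 0.05. The limma-voom count was likewise 0, whereas DESeq2 placed 52 genes (0.356%) on the higher side and 72 (0.493%) on the lower, with ZFAS1 and GAS5 among the higher. Since the labels' values chose the set, these counts of members are not evidence for it.

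**Figure D1:**
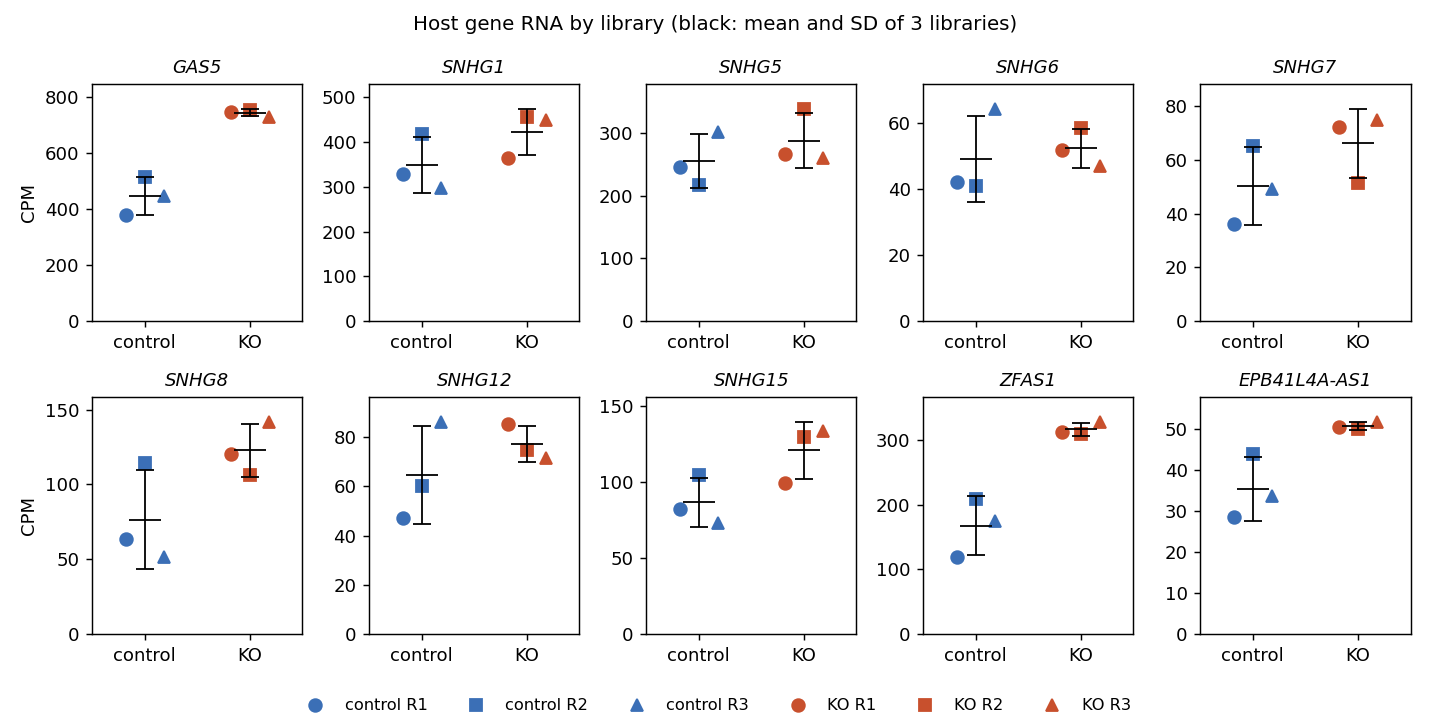
CPM of the 10 host genes (vertical axes, each from 0) in the 3 libraries labelled control and the 3 labelled KO, with black bars for the mean and SD. The KO points of GAS5 lie between 731 and 756 CPM, above the highest control at 515, and those of ZFAS1 and EPB41L4A-AS1 are likewise separate from the controls, while the other 7 genes overlap.

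GAS5 (ENSG00000234741, GRCh38 chromosome 1, 173863900 to 173868882, minus strand, annotated as a processed transcript) measured 380, 515, 449 CPM under the control label and 749, 756, 731 CPM under the KO label. The lowest KO library was 1.42 times the highest control, and the KO libraries lay closer together (746 ± 13.0, SD, n = 3) than the controls (448 ± 67.4, SD, n = 3). The log2 fold change was 0.73 (SE 0.13), and it rested on 7806 to 16644 expected counts per library. KO R2, whose DAPK3 RNA was at the level of control R1 and R3, had the highest GAS5 value of the 6. Control R2, whose DAPK3 RNA was at the level of KO R1 and R3, had the highest GAS5 value of the controls and stayed below all KO libraries.

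ZFAS1 (ENSG00000177410, chromosome 20, 49278178 to 49295738, plus strand), the antisense neighbour of ZNFX1 and host of the SNORD12 snoRNAs, had the largest fold change of the 10 in the fit of all 6 libraries. It measured 119, 210, 175 CPM under the control label and 312, 310, 328 CPM under the KO label. The groups did not overlap, and the log2 fold change was 0.92 (SE 0.20). ZNFX1, whose gene overlaps ZFAS1 on the opposite strand, measured 112, 108, 129 CPM under the control label and 142, 132, 135 CPM under the KO label (log2 fold change 0.23, SE 0.12, edgeR adjusted p = 0.67). How the counting treated strand is not given in the sources used here, so reads of the overlapping ends cannot be told apart.

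EPB41L4A-AS1 (ENSG00000224032, chromosome 5, 112160526 to 112164276, plus strand), host of SNORA13, measured 28.6, 43.9, 33.8 CPM under the control label and 50.5, 50.2, 51.8 CPM under the KO label. The groups did not overlap, by a narrow margin (lowest KO 1.14 times the highest control), and the log2 fold change was 0.52 (SE 0.17). EPB41L4A itself, on the opposite strand, was at most at 0.308 CPM. Of all genes tested, 6.60% had all KO libraries above all controls and 6.98% all below. Among the 10 hosts these counts were 3 and 0, chosen with the values in view.

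SNHG8 and SNHG7, hosts of SNORA24 and of the SNORA17 pair, were lower where DAPK3 RNA was high. This order was shared by 22.6% of all genes tested and is not particular to them. SNHG8 (ENSG00000269893, chromosome 4, 118278709 to 118279823, plus strand) measured 63.7, 114, 51.7 CPM under the control label and 120, 107, 142 CPM under the KO label. Control R2 was thus above KO R2, and the libraries with low DAPK3 RNA (KO R1, KO R3, control R2) were the highest, by the narrow margin of 114 against 107 CPM. KO R2 also lay well above control R1 and R3, so SNHG8 differed by label as well among the libraries with high DAPK3 RNA. SNHG7 (ENSG00000233016, chromosome 9, 136721366 to 136728184, minus strand) measured 36.2, 65.1, 49.1 CPM under the control label and 72.1, 51.5, 74.7 CPM under the KO label. The same 3 libraries were again the highest, and KO R2 lay beside control R3.

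Both genes were lower in the 3 libraries with high DAPK3 RNA without overlap, as were 22.6% of all genes tested, while 21.2% were higher there without overlap and no other host showed either order. The fold changes between the labels were 0.69 (SE 0.29) for SNHG8 and 0.40 (SE 0.24) for SNHG7 on the log2 scale. Between these sets of libraries COL1A1, a stromal marker, also differed, at 490, 64.6, 620 CPM under the control label and 57.1, 535, 56.2 CPM under the KO label, and its part in the result was not tested.

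**Figure D2:**
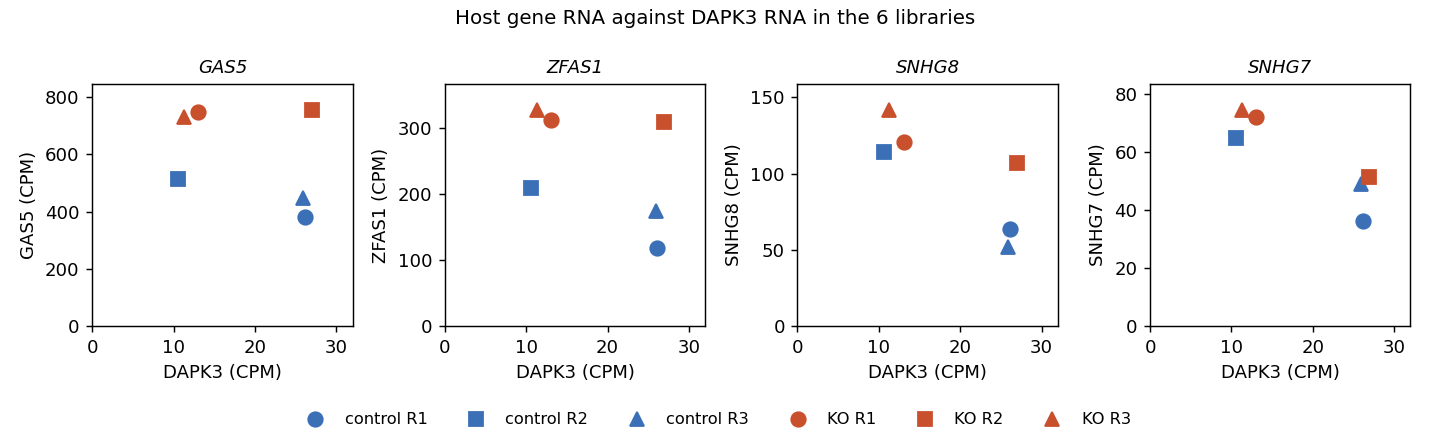
CPM of GAS5, ZFAS1, SNHG8 and SNHG7 (vertical axes) against CPM of DAPK3 (horizontal axis) in the 6 libraries, coloured by label and shaped by replicate number. For each gene shown, KO libraries lie above controls at either DAPK3 level. Over all 6 libraries GAS5 and ZFAS1 divide by label, whereas the 3 libraries with DAPK3 at 10.6 to 13.1 CPM are highest for SNHG8 and SNHG7.

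The remaining 5 hosts overlapped between the labels. SNHG15 (ENSG00000232956, chromosome 7, 44983023 to 44986961, minus strand, host of SNORA9) measured 82.2, 104, 72.8 CPM under the control label and 99.4, 129, 133 CPM under the KO label, with only control R2 and KO R1 out of order (log2 fold change 0.48, SE 0.18). SNHG1 (ENSG00000255717, chromosome 11, 62851988 to 62855914, minus strand, host of SNORD22 and of SNORD25 to SNORD31) measured 329, 418, 298 CPM under the control label and 364, 455, 449 CPM under the KO label, where again control R2 exceeded KO R1 (0.28, SE 0.16). SNHG12 (ENSG00000197989, chromosome 1, 28578538 to 28583132, minus strand, host of SNORD99, SNORA61, SNORA44 and SNORA16A) measured 47.2, 60.1, 86.1 CPM under the control label and 85.3, 74.8, 71.5 CPM under the KO label, the highest value of the 6 being control R3 (0.26, SE 0.23).

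SNHG5, host of the SNORD50 pair, and SNHG6, host of SNORD87, had the smallest differences. SNHG5 (ENSG00000203875, chromosome 6, 85660950 to 85678748, minus strand) measured 246, 218, 302 CPM under the control label and 266, 338, 260 CPM under the KO label (log2 fold change 0.17, SE 0.18), with control R2 the lowest and KO R2 the highest of the 6. SNHG6 (ENSG00000245910, chromosome 8, 66921684 to 66926398, minus strand) measured 42.2, 40.8, 64.2 CPM under the control label and 51.7, 58.6, 46.9 CPM under the KO label (0.09, SE 0.21). Both are box C/D hosts whose annotation includes a pyrimidine tract at the start, as it does for GAS5 and ZFAS1.

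Levels between genes were compared as CPM per kilobase of merged annotated exons, a length that overstates the spliced RNA of genes with many isoforms. In the control libraries GAS5 was the highest at 123 ± 18.6 CPM per kilobase, followed by SNHG1 (92.8 ± 16.7), SNHG5 (91.1 ± 15.3), SNHG8 (82.9 ± 35.8) and ZFAS1 (74.8 ± 20.5; all SD, n = 3). On this measure the last 4 did not differ beyond their spread. The range of GAS5 (105 to 142) overlapped those of SNHG1 (79.3 to 111), SNHG5 (77.7 to 107.8) and SNHG8 (56.0 to 123.5). The comparison depends on the length used. Merged exons of SNHG1 and SNHG8 span 3.756 and 0.923 kilobases, whereas their median transcripts are 748 and 470 bases long. Below them came SNHG6 (39.4 ± 10.5), SNHG15 (23.7 ± 4.44), SNHG12 (15.1 ± 4.65), SNHG7 (11.5 ± 3.33) and EPB41L4A-AS1 (10.6 ± 2.32), and among the last 4 each neighbouring pair overlapped in range. In the KO libraries GAS5 stood at 205 ± 3.57 CPM per kilobase, above the range of any other host, and ZFAS1 came next at 141 ± 4.47, with SNHG8, whose range overlapped it, at 133 ± 19.2, SNHG1 at 113 ± 13.5 and SNHG5 at 103 ± 15.5. The order of the 5 lowest was the same by mean, from SNHG6 at 42.0 ± 4.73 to EPB41L4A-AS1 at 15.2 ± 0.259, the latter level with SNHG7 (15.2 ± 2.94).

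The label difference was also read at like DAPK3 RNA. On the log2 CPM scale, KO R2 exceeded the mean of control R1 and R3 by 0.87 for GAS5, 1.10 for ZFAS1, 0.89 for SNHG8, 0.74 for SNHG15 and 0.69 for EPB41L4A-AS1. The mean of KO R1 and R3 exceeded control R2 by 0.52 for GAS5, 0.61 for ZFAS1, 0.20 for SNHG8, 0.14 for SNHG15 and 0.22 for EPB41L4A-AS1. For SNHG1 the first difference was 0.54 and the second −0.05. The remaining hosts were above 0 in both. The first difference was 0.31 for SNHG5, 0.17 for SNHG6, 0.29 for SNHG7 and 0.23 for SNHG12. The second was 0.27 for SNHG5, 0.27 for SNHG6, 0.17 for SNHG7 and 0.38 for SNHG12. With 1 library on a side these differences have no replicate check.

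With the log2 CPM of DAPK3 as a covariate, the label's log2 fold change was 0.71 (SE 0.11) for GAS5, 0.87 (SE 0.16) for ZFAS1, 0.60 (SE 0.15) for SNHG8 and 0.48 (SE 0.13) for EPB41L4A-AS1. Standard errors were smaller than without the covariate for each of these 4. edgeR called 0 of 14613 genes in this fit (0%), while 2457 passed an unadjusted 0.05 and the lowest adjusted p was 0.108.

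Without both R2 libraries, a choice that makes label and DAPK3 RNA run in parallel, edgeR called 1805 of 14846 genes higher (12.2%) and 2250 lower (15.2%) in the libraries labelled KO. Of the 10 hosts 6 were called higher and 0 lower, again in a contrast that the choice of the set had used. These were GAS5 (log2 fold change 0.81, SE 0.13), ZFAS1 (1.09, SE 0.19), SNHG8 (1.16, SE 0.15), SNHG7 (0.75, SE 0.17), EPB41L4A-AS1 (0.68, SE 0.14) and SNHG15 (0.56, SE 0.16). SNHG1 stood at 0.35 (SE 0.14) and SNHG12 at 0.20 (SE 0.27). SNHG5 and SNHG6 turned below 0, at −0.09 (SE 0.14) and −0.14 (SE 0.21). Leaving out control R1 as well took the count of called genes from 4055 to 2543.

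**Figure D3:**
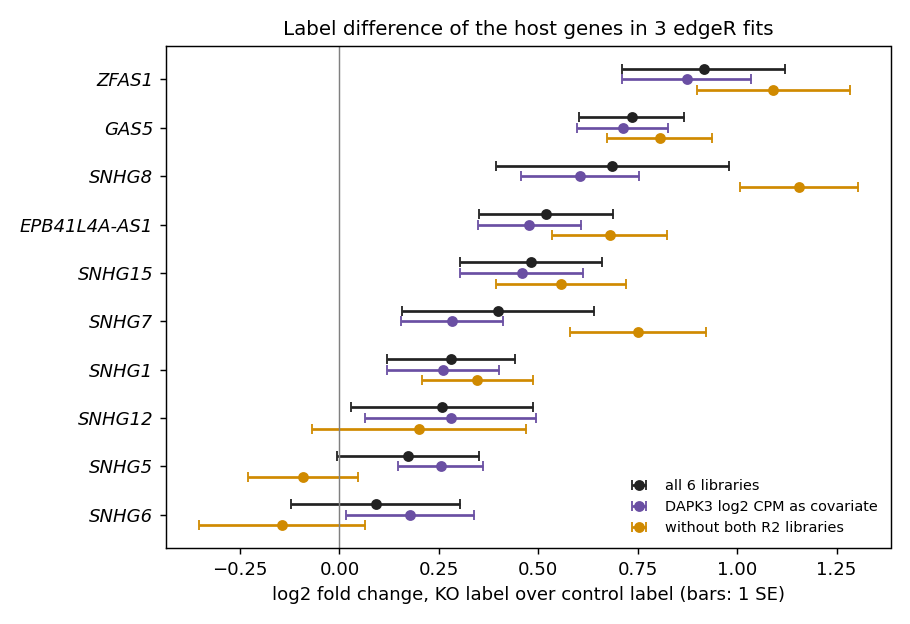
Log2 fold change of KO over control with 1 SE (horizontal axis) for the 10 hosts in edgeR fits of all 6 libraries, of all 6 with DAPK3 log2 CPM as a covariate, and of the 4 libraries without both R2. GAS5 stays between 0.71 and 0.81, SNHG8 moves from 0.69 to 1.16 without the R2 libraries, and SNHG5 and SNHG6 change sign there.

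Other noncoding snoRNA hosts did not share one direction. Of 15 tested, 4 were higher and 0 lower at an unadjusted p under 0.05, against 3.49% and 4.17% of all genes. Yet only 5 of the 15 fold changes were above 0, and the median log2 fold change was −0.16. SNHG17 measured 45.9, 64.6, 46.3 CPM under the control label and 86.0, 92.9, 84.5 CPM under the KO label (log2 fold change 0.75, SE 0.16, edgeR adjusted p = 0.63). C6orf48, the earlier symbol of SNHG32, measured 136, 239, 173 CPM under the control label and 355, 286, 358 CPM under the KO label (0.87, SE 0.22, edgeR adjusted p = 0.63). Both were without overlap, as was SNHG11 at 9.06 to 12.7 CPM in control and 13.1 to 16.7 in KO. Over all genes tested, 6.60% were likewise higher under KO without overlap. SNHG3, by contrast, was lower in every KO library, at 162, 171, 158 CPM under the control label and 149, 138, 145 CPM under the KO label (−0.19, SE 0.10, edgeR adjusted p = 0.67). SNHG10 was also lower without overlap (−0.50, SE 0.21). SNHG3 and SNHG10 were chosen after their values were seen.

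Protein-coding snoRNA hosts stood near 0 as a list. Of 43 tested, 4 were higher and 2 lower at an unadjusted p under 0.05, against 3.49% and 4.17% of all genes. The median log2 fold change was 0.04. HSPA9, a mitochondrial chaperone, measured 931, 1190, 1066 CPM under the control label and 1461, 1315, 1505 CPM under the KO label (0.42, SE 0.12, edgeR adjusted p = 0.63). TCP1, a subunit of the cytosolic chaperonin, measured 516, 300.5, 396 CPM under the control label and 186, 281, 239 CPM under the KO label (−0.78, SE 0.24, edgeR adjusted p = 0.63). Other mRNAs with pyrimidine tracts had 0 of 20 at an unadjusted p under 0.05 in either direction and a median of −0.02, with the elongation factor gene EEF1A1 at −0.12 (SE 0.14). The mTORC1 and tract regulator list had 0 of 13 and a median of 0.11, with LARP1, a binder of such tracts, at 0.06 (SE 0.10).

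In the fit of all 6 libraries edgeR called 0 of 14613 genes (0%). That no gene of snoRNP assembly or of nonsense-mediated decay was called therefore says nothing particular to these lists. The 18 snoRNP core and assembly genes had a median log2 fold change of 0.11. At an unadjusted p under 0.05, where 3.49% of all genes were higher and 4.17% lower, 2 were higher and 0 lower. These were NUFIP1, a box C/D assembly factor (0.70, SE 0.17), and DKC1, the pseudouridine synthase of box H/ACA particles and itself a snoRNA host counted in the list above (0.44, SE 0.15). Fibrillarin (FBL), the box C/D methyltransferase, stood at −0.20 (SE 0.15) and was named after its value was seen. Of 21 decay factors, 2 were higher and 1 lower, with a median of 0.21. The decapping gene DCP1A stood at 0.41 (SE 0.13) and EIF4A3, of the exon junction complex, at −0.44 (SE 0.13). UPF1, the central helicase of the pathway, stood at 0.21 (SE 0.10) and was added after its value was seen.

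The 7 mRNAs known to be sensitive to nonsense-mediated decay had a median log2 fold change of 0.53. At an unadjusted p under 0.05, where 3.49% of all genes were higher and 4.17% lower, 2 were higher and 0 lower. GADD45A, a stress and growth arrest gene, measured 104, 118, 62.5 CPM under the control label and 165, 248, 190 CPM under the KO label (1.09, SE 0.27, edgeR adjusted p = 0.63). UPP1, encoding uridine phosphorylase, measured 64.1, 61.4, 57.7 CPM under the control label and 84.7, 105, 73.9 CPM under the KO label (0.53, SE 0.16, edgeR adjusted p = 0.63). Neither overlapped between the labels, and 6.60% of all genes were likewise higher under KO without overlap. ATF4, named after its value was seen, stood at 0.02 (SE 0.14).

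Glucocorticoid receptor and target genes had 0 of 11 at an unadjusted p under 0.05 and a median of 0.07, with FKBP5 at −0.07 (SE 0.14). The other genes named for growth arrest had 0 of 6 higher and 2 lower, against 3.49% and 4.17% of all genes, with a median of −0.58. GAS1 measured 7.94, 10.8, 4.69 CPM under the control label and 3.82, 3.31, 4.83 CPM under the KO label (−0.97, SE 0.35, edgeR adjusted p = 0.63). PMP22 measured 41.7, 13.3, 36.2 CPM under the control label and 9.45, 18.9, 8.83 CPM under the KO label (−1.30, SE 0.50, edgeR adjusted p = 0.63). Both overlapped between the labels.

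Without both R2 libraries, 12.2% of all genes were called higher and 15.2% lower by edgeR at the adjusted threshold. With all 6 libraries 0 genes of any list were called at this threshold. The list counts given above for that fit are at an unadjusted p under 0.05 and are not comparable with those that follow. Of the 18 snoRNP genes 6 were called higher and 0 lower, of the 21 decay factors 7 higher and 3 lower, and of the 15 other noncoding hosts 3 higher and 2 lower. Of the 11 glucocorticoid receptor and target genes 2 were called higher and 3 lower, and of the 6 growth arrest genes 1 higher and 4 lower. The 43 protein-coding hosts gave 4 higher and 2 lower, the 20 pyrimidine tract mRNAs 1 higher and 2 lower, and the 13 mTORC1 and tract regulators 1 higher and 0 lower. SNHG17 (log2 fold change 0.86, SE 0.12, edgeR adjusted p = 0.0029) and C6orf48 (1.18, SE 0.15, edgeR adjusted p = 0.0022) rose in this fit. TCP1 fell, at −1.13 (SE 0.17, edgeR adjusted p = 0.0046), as did PMP22, a myelin and growth arrest gene, at −2.12 (SE 0.16, edgeR adjusted p = 3e-04). Of the 7 decay-sensitive mRNAs 1 was called higher, GADD45A at 1.07 (SE 0.22, edgeR adjusted p = 0.014), and 1 lower, its relative GADD45B at −1.21 (edgeR adjusted p = 0.013), which was named after its values were seen.

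**Figure D4:**
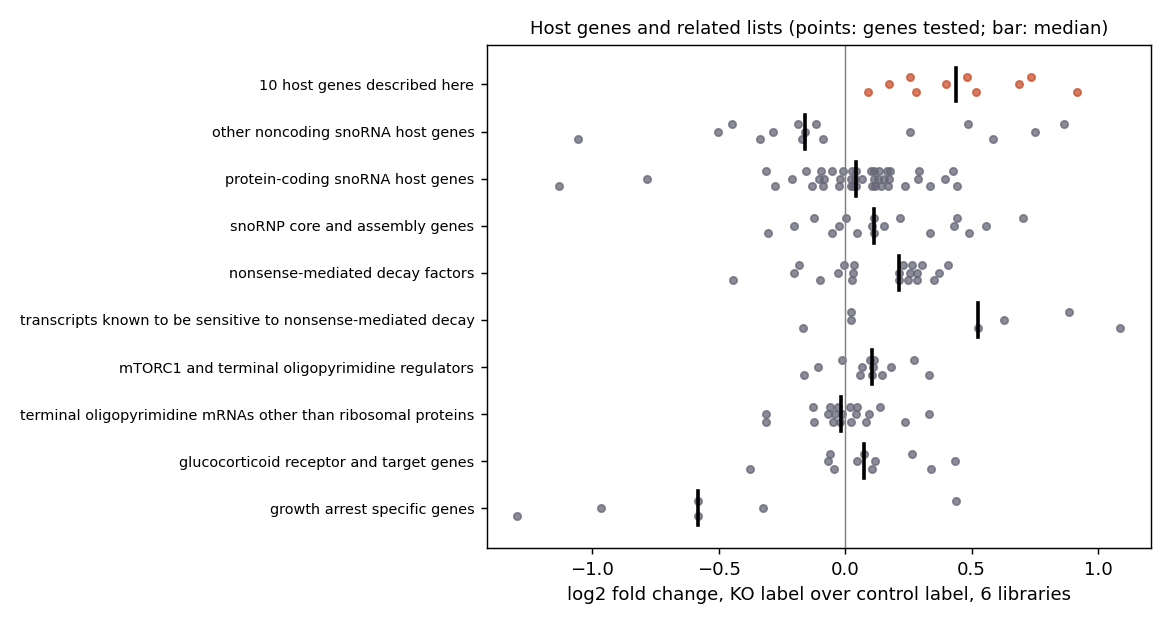
Log2 fold change of KO over control in the fit of 6 libraries (horizontal axis) for each gene tested of the 10 hosts and of 9 related lists, with a black bar at each median. The 10 hosts lie above 0 with a median of 0.44, the other noncoding hosts spread to both sides with a median of −0.16, and the lists of pyrimidine tract mRNAs and protein-coding hosts centre near 0.

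Among 9968 genes whose log2 CPM averaged 3 or more, those most like GAS5 by Pearson correlation of log2 CPM over the 6 libraries were SP2, a transcription factor (r = 0.996), AEN, a p53-induced nuclease gene (0.994), SLC9A8, a sodium-proton exchanger (0.994), LARP1B, a relative of LARP1 (0.993), and FAM86JP, a pseudogene (0.993). AEN measured 49.7, 65.5, 53.6 CPM under the control label and 90.5, 93.3, 92.3 CPM under the KO label. Among the other 9 hosts the likeness to GAS5 ran from 0.25 for SNHG6 and 0.36 for SNHG5 to 0.96 for EPB41L4A-AS1 and 0.98 for ZFAS1. The 6 points of each correlation are the same libraries and fall into groups by label, so r describes the likeness of 2 profiles only.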

How the data were processed

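Deposited values are expected counts, the read numbers RSEM estimates for each gene, without normalization. RSEM, Bowtie2, edgeR and GRCh38 are named per the submitters' processing notes, without versions, and for the annotation and the strand setting no source was at hand. RSEM divides shared reads by estimate, which touched SNHG6, SNHG7 and EPB41L4A-AS1. Counts were rounded, filtered with filterByExpr, scaled with TMM and tested in edgeR 4.0.16 under R 4.3.3 (quasi-likelihood F test), with Benjamini-Hochberg adjustment over all genes tested and a threshold of 0.05. Each SE is the fold change over the square root of F. limma 3.58.1 and DESeq2 1.42.0 served as alternatives, and the edgeR step was tested on simulated data. Coordinates and transcripts are from GENCODE release 29 on GRCh38, and promoter windows and snoRNAs are from RefSeq on GRCh38.p14, matched by symbol for 8 of 10 hosts for promoters. Every 2 libraries differed beyond sampling noise (chi-square per degree of freedom at least 12.9, for control R2 with KO R3). By this measure both R2 libraries were nearer to R1 and R3 of the other label than of their own. Control R2 gave 32 and 12.9 with KO R1 and R3, against 88.6 and 94.8 with control R1 and R3. KO R2 gave 35.3 and 40.9 with control R1 and R3, against 78 and 69.5 with KO R1 and R3.

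The members and gene lists were chosen with earlier results of these data known. Genes named outside the 10 were, per list, up to 3 with an unadjusted p under 0.05, or otherwise the 2 most expressed, together with neighbouring genes and the 5 most like GAS5; some genes that this rule names are not reported here. The alternatives were other scaling, other filters, other tools, a replicate block, a DAPK3 covariate and left-out libraries.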

Additional observations from a re-analysis of the deposited data

How the results depend on the processing

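The GAS5 log2 fold change between the labels ran from 0.63 (without control R1) to 0.82 (without control R2) over 15 other settings, and ZFAS1 from 0.72 to 1.09, both above 0 in all 15. EPB41L4A-AS1, SNHG1, SNHG7, SNHG8, SNHG12 and SNHG15 were also above 0 in all 15, SNHG5 in 14 and SNHG6 in 11. The count of genes called between the labels was 0 in every setting except DESeq2 (124) and the fit without both R2 libraries (4055), and it was 0 without each single library in turn. Without both R2 libraries the count ran from 2543 (control R1 also left out) to 3700 with 1 further library left out, in fits where a lone library is assumed to vary like the other group. Deviations from the group mean correlated at −0.63, −0.84 and −0.67 between same-numbered libraries. Of the 3 control libraries, 0 correlated best with the KO library of its own number. The R2 libraries depart from their groups in opposite directions, so these correlations cannot tell whether replicate numbers pair the libraries. With the replicate block, 0 genes were called over 6 libraries and 2705 over 4, and the GAS5 value was 0.74 (SE 0.17). Each host had at least 588 expected counts in every library, so none was near the floor. How much of the spread between libraries is counting noise was not tested. The KO values of EPB41L4A-AS1 lay close together (50.8 ± 0.866 CPM, SD, n = 3) on 819 to 1179 expected counts.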

Other observations

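Genes beside the hosts were read from the same fit, with libraries in the order R1, R2, R3. SLC3A2, an amino acid transporter subunit whose gene lies 188 bases from SNHG1 on the opposite strand, measured 442, 653, 436 CPM under the control label and 739, 590, 719 CPM under the KO label (log2 fold change 0.42, SE 0.19, edgeR adjusted p = 0.66), and KO R2 lay below control R2. ZBTB37, which overlaps GAS5 on the opposite strand, stood between 10.8 and 11.9 CPM in control and between 9.75 and 12.9 CPM in KO (−0.01, SE 0.19). PRSS12, whose gene lies 215 bases from SNHG8 on the opposite strand, was low in the libraries where SNHG8 was high, at 8.62, 4.69, 9.58 CPM under the control label and 4.88, 8.51, 5.45 CPM under the KO label (−0.28, SE 0.36, edgeR adjusted p = 0.85). This is the order by DAPK3 RNA, and 21.2% of all genes tested were likewise higher without overlap where DAPK3 RNA was high.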
